A study of Mus musculus with 4 samples.

Results

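The miR-144 and miR-451a cluster gives rise to 3 mature miRNAs in the deposited table, mmu-miR-451a, mmu-miR-144-3p and mmu-miR-144-5p, which were taken by name from the 1809 miRNAs listed for all libraries. All 3 were counted in each of the 4 libraries. The samples were small RNA from exosome preparations (vesicles precipitated from blood plasma) of C57BL/6 mice that carried Lewis lung carcinoma (LLC), a mouse lung tumour line injected into a vein 21 days earlier. The mice were wild type (WT) or gp49B-/- (KO), which lack gp49B, an inhibitory receptor of myeloid cells, and every mouse bore the tumour, so no tumour-free group entered. Each genotype had 2 libraries, numbered pool 1 and pool 2, and a library was made from pooled plasma, 3 samples for a WT pool and 4 for a KO pool. The number of samples pooled therefore cannot be told apart from genotype, and the spread between libraries is a spread between pools, not between mice. The sources used here do not give the age of the mice.

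Each captured RNA molecule was tagged before amplification with a unique molecular identifier (UMI), and counts are of these UMIs. Library totals ran from 1607218 to 3645842 UMIs. Pool 1 libraries held 5.29 and 5.70 reads per UMI and pool 2 libraries 1.69 and 2.11, and no miRNA in pool 1 had fewer than 10 UMIs unless it had 0, while pool 2 counts went down to 1 or 2. These differences followed pool number and not genotype, so results are given within each pool number as well as together. Small RNA libraries do not measure the mRNA of the deleted gene, so genotypes are as labelled.

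Both hairpins of the cluster are cut from a single primary transcript that the factor GATA1 switches on in red cell precursors, and the products pile up as red cells mature. The maturation routes differ. The miR-144 hairpin is processed by Drosha and then Dicer, like most miRNAs. The miR-451a hairpin is too short in its stem for Dicer, and after Drosha it is sliced by Argonaute 2 and trimmed, so its mature strand runs into the loop and no 3p partner is made. In erythroid cells miR-451a represses Ywhaz (14-3-3 zeta) and protects against oxidative stress, and miR-144-3p restrains the antioxidant factor Nrf2. Mature red cells keep these miRNAs after losing their nucleus, which makes miR-451a a usual sign of red cell RNA in plasma.

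The mature sequences are printed from RefSeq (GRCm38.p6) because the members differ in seed, the stretch from base 2 to base 8 that selects targets, shown in capitals. The antisense product miR-451b and the nearest relative by seed, miR-101a-3p, are added for comparison.
miR-451a: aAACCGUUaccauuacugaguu
miR-144-3p: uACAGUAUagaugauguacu
miR-144-5p: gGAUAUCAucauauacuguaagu
miR-451b: uGGGAGCAgcaagagaaccgu
miR-101a-3p: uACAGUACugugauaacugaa
No other miRNA in the RefSeq table had the full seed of any member. The seed of miR-144-3p was shared up to base 7 by 1 other miRNA, miR-101a-3p, with the substitution U8C, counted from the 5′ end. The 3 members therefore formed no common seed group, although they come from the same transcript.

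The cluster lies on chromosome 11 of GRCm38, on the plus strand, between genes. The Mir144 hairpin spans 78073005 to 78073070 and the Mir451a hairpin 78073170 to 78073241, with 99 bases between them. Mature miR-144-5p lies at 78073010 to 78073032, miR-144-3p at 78073047 to 78073066 and miR-451a at 78073186 to 78073207, and the deposited positions were identical to those of RefSeq. No protein-coding gene of GENCODE M21 overlaps the cluster. The 3′ end of Eral1, on the minus strand, begins 134 bases beyond the Mir451a hairpin, and Flot2 ends 12570 bases before Mir144. Mir451b is annotated on the minus strand over the same 78073170 to 78073241, and its mature product (78073219 to 78073239) does not overlap that of miR-451a.

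**Figure D1:**
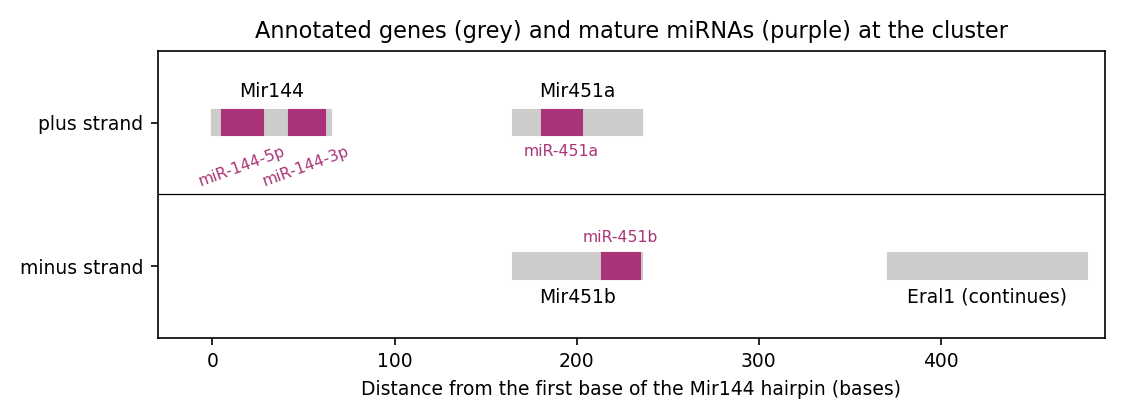
Map of the cluster in bases from the first base of the Mir144 hairpin, with annotated genes in grey and mature miRNAs in purple, by strand. The hairpins lie 99 bases apart, and miR-451b is read from the strand opposite to miR-451a.

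Both hairpins are printed whole, with the mature parts in capitals, to show where each product sits.
Mir144: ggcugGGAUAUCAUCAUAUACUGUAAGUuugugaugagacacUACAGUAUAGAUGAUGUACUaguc
Mir451a: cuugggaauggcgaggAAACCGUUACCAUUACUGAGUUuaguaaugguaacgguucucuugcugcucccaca
Folded with RNAfold, the Mir144 hairpin of 66 bases placed miR-144-5p wholly before the terminal loop and miR-144-3p wholly after it. In the Mir451a hairpin of 72 bases, mature miR-451a took up 18 bases before the loop and all 4 bases of the loop. The fold is a prediction from sequence and was not measured here.

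miR-451a was the most abundant member in all libraries. WT pools 1 and 2 held 2938 and 7281 UMIs of it, and KO pools 1 and 2 held 2396 and 8636. As a share of all miRNA UMIs this was 0.186% (exact 95% binomial interval 0.179 to 0.193%), 0.230% (0.224 to 0.235%), 0.1401% (0.135 to 0.146%) and 0.238% (0.233 to 0.243%), intervals that cover counting error only. Both pool 2 libraries were above both pool 1 libraries, while the ranges of WT and KO overlapped. Ordered by UMI count it stood at place 50, 34, 59 and 37 among the 1809 miRNAs in the same order of libraries.

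miR-144-3p, the strand of the miR-144 hairpin with the better known targets, was counted less. WT pools 1 and 2 held 506 and 240 UMIs and the KO pools 214 and 358, or 0.0321%, 0.00757%, 0.0125% and 0.00986% of miRNA UMIs. WT pool 1 stood above the other 3 libraries on this scale, and both KO values lay between the WT values. The opposite strand, miR-144-5p, had 90, 130, 69 and 158 UMIs in that order, or 0.00570%, 0.00410%, 0.00403% and 0.00435%. The antisense miR-451b had 54, 62, 45 and 84 UMIs, against 47, 31, 43 and 42 for the middle miRNA of each library, so it was close to the middle in pool 1 and above it in pool 2. In bulk plasma, fewer vesicles or red cells as a source and less miRNA in each cannot be told apart.

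Together the 3 members held 0.224% (WT) and 0.157% (KO) of miRNA UMIs in pool 1, and 0.241% (WT) and 0.252% (KO) in pool 2. Nearly all of this was miR-451a. None of these shares differed by genotype in a two-sided exact permutation test: the p was 1.0 for miR-451a (WT mean 0.208% ± 0.0308, KO 0.189% ± 0.0692, SD, n = 2 each), 1.0 for miR-144-3p (0.0198% ± 0.0173 and 0.0112% ± 0.00187) and 0.667 for miR-144-5p (0.00490% ± 0.00113 and 0.00419% ± 0.000225). The smallest p that 2 against 2 libraries allow is 0.333, so this test could not have passed.

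**Figure D2:**
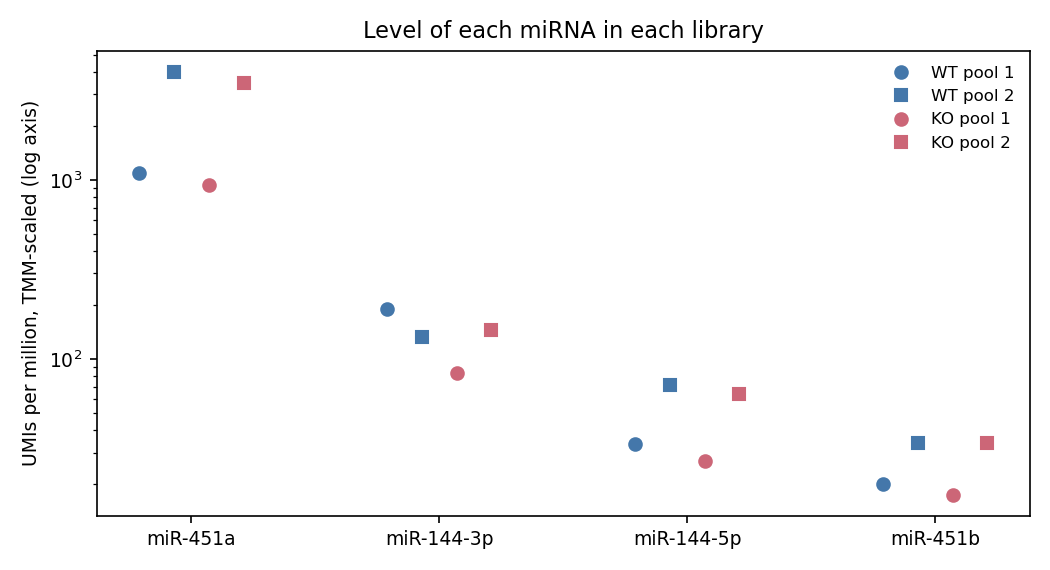
CPM of UMIs after TMM scaling (log axis) for the 3 members and miR-451b, 1 point per library, with WT in blue, KO in red, circles for pool 1 and squares for pool 2. For miR-451a and miR-144-5p both squares lie above both circles, whereas for miR-144-3p the highest point is WT pool 1 and the lowest KO pool 1.

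The genotype comparison asks whether loss of gp49B changed the miRNAs carried in plasma of tumour-bearing mice. For the cluster no change passed the test. After TMM scaling, which sets libraries to a common level on the assumption that most miRNAs do not change, miR-451a had 1098 and 4002 CPM (counts scaled to a common library total) in WT pools 1 and 2, against 933 and 3479 in KO pools 1 and 2. The log2 fold change, KO over WT, was -0.21 (SE 0.88; edgeR's quasi-likelihood test, unadjusted p = 0.816, Benjamini-Hochberg adjusted p = 0.99995). The difference was far smaller than the spread between the pools of a genotype. For miR-144-3p the WT pools had 189 and 132 CPM against 83.3 and 144.2 in KO. Its estimate was -0.50 (SE 0.54, unadjusted p = 0.374, edgeR adjusted p = 0.99995). For miR-144-5p they were 33.6 and 71.5 against 26.9 and 63.6, with an estimate of -0.21 (SE 0.58, unadjusted p = 0.722, edgeR adjusted p = 0.99995).

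All 3 estimates were below 0, and so were 52.6% of the 1797 miRNAs tested. For no member were both KO libraries on the same side of both WT libraries, a separation seen in 21.0% of the 1780 miRNAs with counts in every library. edgeR called 0 of the 3 members, and 0 of all miRNAs tested (0%), at an adjusted p under 0.05. At an unadjusted p under 0.05 it counted 32, which is 1.78% of miRNAs, where DESeq2 counted 28 and limma-voom 27, and none of the 32 was a member. The 4 libraries left 2 residual degrees of freedom. For each member the SE was larger than the size of its estimate, and a missed threshold does not show that the genotypes were alike. Estimates above 0 made up 47.36% of miRNAs with TMM scaling and 34.95% when TMM was computed on the 352 miRNAs that averaged at least 100 UMIs. Leaving out WT pool 2 moved the estimate for miR-451a to 1.01 and leaving out KO pool 2 moved it to -1.45, so it took its sign from which pools entered.

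Within pool numbers the members parted. For miR-451a the KO over WT ratio of TMM-scaled UMIs was 0.850 in pool 1 (exact 95% interval 0.805 to 0.897, counting error only) and 0.869 in pool 2 (0.842 to 0.897). miR-144-5p had ratios of 0.799 (0.575 to 1.11) and 0.891 (0.702 to 1.13). With TMM both pools thus put these 2 members lower in KO, as they did for 27.1% of all miRNAs. Scaled on total UMIs the pool 2 ratios became 1.03 for miR-451a and 1.06 for miR-144-5p, so the direction in pool 2 depended on the scaling. The median ratio of all miRNAs in pool 2 was 0.989 with TMM and 1.18 with total UMIs, and both members lay below it on either scale. On the total UMI scale 20.5% of miRNAs were lower in KO in both pools, none of the members among them.

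miR-144-3p was at least 2-fold lower in KO in pool 1 only. Pool 1 gave a ratio of 0.441 (0.374 to 0.518), and pool 2 gave 1.09 (0.926 to 1.29). On total UMIs the ratios were 0.393 (0.333 to 0.462) and 1.30 (1.10 to 1.54). A ratio at or below 1 over 2 in pool 1 was found for 2.98% of all miRNAs tested and for 0.568% of the 352 more abundant ones, where miR-144-3p had the lowest ratio. The pattern of lower in pool 1 and higher in pool 2 was shared by 23.5% of miRNAs with TMM and 44.2% with total UMIs. The authors' own normalized values, on a log2 scale, were 8.96 in WT pool 1 and 7.77 in KO pool 1, and 8.12 and 8.28 in pool 2. Whether the genotype difference itself differs between pools was not tested, since each pool number holds 1 library per genotype.

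**Figure D3:**
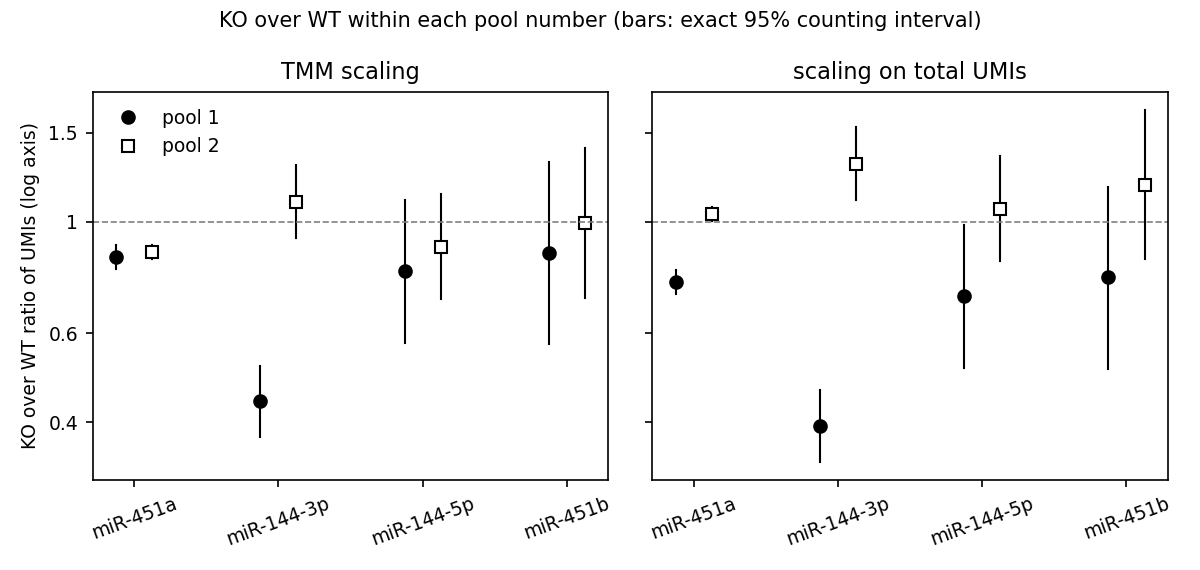
KO over WT ratio of UMIs (log axis) within pool 1 (filled circles) and pool 2 (open squares), with TMM scaling on the left and scaling on total UMIs on the right, and bars for the exact 95% counting interval. The pool 1 value of miR-144-3p, 0.441 or 0.393, lies apart from the other members on either scale, and the pool 2 values of miR-451a and miR-144-5p move from below 1 to above it between the panels.

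The read counts offered a second look at miR-144-3p. It had 3322 reads in WT pool 1 and 1754 in KO pool 1, and 436 and 823 in pool 2. In reads per UMI this was 6.57 and 8.20 in pool 1, and 1.82 and 2.30 in pool 2. Among the 352 more abundant miRNAs the middle value was 5.82 in WT pool 1 and 6.16 in KO pool 1, and in KO pool 1 no miRNA had more reads per UMI than miR-144-3p. In WT pool 1 there were 7 above it. In contrast miR-451a had 5.88 and 6.18 reads per UMI in pool 1 and 1.69 and 2.14 in pool 2, near the middle of its library each time, and miR-144-5p had 6.18 and 5.61, then 1.71 and 2.27. Counted in reads, the pool 1 ratio of miR-144-3p was 0.524 in place of 0.441. The part of the high reads per UMI in the low UMI count was not tested.

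Between pool numbers the members differed as well. miR-451a was higher in pool 2 than in pool 1 by 3.65-fold in WT (3.49 to 3.81) and 3.73-fold in KO (3.56 to 3.90) with TMM. miR-144-5p was higher by 2.12-fold (1.61 to 2.81) and 2.37-fold (1.77 to 3.19). A rise of at least 2-fold in both genotypes was found for 4.16% of miRNAs. On total UMIs it was found for 0.112%, and neither member was among them: miR-451a was then 1.25-fold and 1.71-fold higher, and miR-144-5p had pool 2 over pool 1 ratios of 0.730 and 1.09. Scaling moved all such ratios, since their median over miRNAs was 0.968 in WT and 1.00 in KO with TMM but 0.333 and 0.461 with total UMIs. Among the 352 more abundant miRNAs these medians were higher, at 1.36 in WT and 1.18 in KO with TMM, and 0.468 and 0.542 with total UMIs. The share of those 352 that rose at least 2-fold in both genotypes was not counted. Relative to either median, both members were higher in pool 2 in each genotype under both scalings.

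For miR-144-3p the change between pools had opposite signs in the genotypes. Its pool 2 over pool 1 ratio was 0.698 (0.596 to 0.815) in WT and 1.73 (1.46 to 2.06) in KO with TMM. A fall in WT with a rise in KO was seen in 16.5% of miRNAs. With total UMIs the ratios were 0.240 and 0.793, both below 1, and 5.00% of miRNAs had the mixed pattern on that scale. The medians of all miRNAs there were 0.333 in WT and 0.461 in KO. Relative to them, miR-144-3p was still lower in pool 2 in WT and higher in KO. The 4 levels of miR-144-3p behind these ratios rest on 1 library each.

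Ratios of the members inside a library need no scaling between libraries. Adaptor ligation captures miRNAs unequally, so these ratios are compared between libraries and are not numbers of molecules. For each UMI of miR-144-5p WT pools 1 and 2 held 5.62 (4.49 to 7.12) and 1.85 (1.49 to 2.30) UMIs of miR-144-3p, and KO pools 1 and 2 held 3.10 (2.35 to 4.13) and 2.27 (1.87 to 2.75). The 3p arm outnumbered the 5p arm in each library, and the KO values lay within the WT range. On the log2 scale the mean was 1.69 ± 1.14 in WT and 1.41 ± 0.32 in KO (SD, n = 2 each, exact permutation p = 1.0). Without WT pool 1 the difference, KO minus WT, turned from -0.28 to 0.52. Among the 44 hairpins with both arms averaging at least 100 UMIs, the log2 arm ratio of miR-144 ranged over 1.61 between libraries, the 13th widest, where the median range was 1.23. Arm ratios moved between pools for other hairpins too, such as miR-486b of red cells, whose log2 3p over 5p ratio was -4.73 (WT) and -4.71 (KO) in pool 1 and -6.83 (WT) and -6.63 (KO) in pool 2.

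miR-451a kept closer step with miR-144-5p than with miR-144-3p. The ratio of miR-451a to miR-144-5p was 32.6 (WT) and 34.7 (KO) in pool 1, against 56.0 (WT) and 54.7 (KO) in pool 2. It was thus near equal between genotypes within a pool number, with log2 differences, KO minus WT, of 0.09 in pool 1 and -0.04 in pool 2. The ratio of miR-451a to miR-144-3p was 5.81 (WT) and 11.2 (KO) in pool 1, against 30.3 (WT) and 24.1 (KO) in pool 2. Here the log2 differences were 0.95 and -0.33, and the mean was 3.73 ± 1.69 in WT and 4.04 ± 0.78 in KO (SD, n = 2 each, exact permutation p = 1.0).

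**Figure D4:**
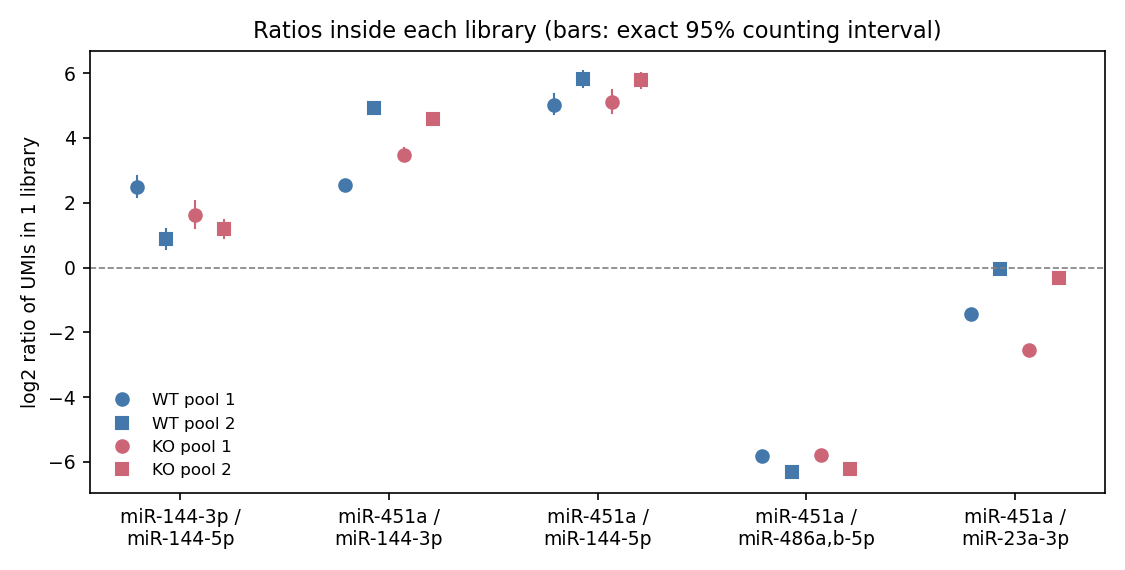
Log2 ratio of UMIs inside each library for 5 pairs, 1 point per library, with WT in blue, KO in red, circles for pool 1, squares for pool 2 and bars for the exact 95% counting interval. Ratios of miR-451a to miR-144-5p and to miR-486a-5p with miR-486b-5p pair up by pool number, while those with miR-144-3p spread further, from 5.81 to 30.3 for miR-451a over miR-144-3p.

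Other red cell miRNAs gave the setting for miR-451a. The most abundant of them, miR-16-5p, which many blood cells share, had 558237 (WT) and 503448 (KO) UMIs in pool 1, and 785747 (WT) and 1034545 (KO) in pool 2. Per UMI of miR-451a that was 190.0 (WT) and 210.1 (KO) in pool 1, and 107.9 (WT) and 119.8 (KO) in pool 2. miR-486a-5p and miR-486b-5p, which derive from a locus in the ankyrin gene Ank1 and are rich in red cells, together gave 55.9 (WT) and 55.5 (KO) per UMI of miR-451a in pool 1, and 79.3 (WT) and 73.7 (KO) in pool 2. The log2 ratio of miR-451a to this pair was -6.06 ± 0.36 in WT and -6.00 ± 0.29 in KO (SD, n = 2 each, exact permutation p = 0.667). Within pool numbers that ratio differed by 0.01 and 0.11 on the log2 scale. miR-451a was thus much less counted than miR-486b-5p in these libraries, at 1098 to 4002 CPM over WT libraries against 50087 to 272892, a gap that can include unequal capture of the miRNAs and is not a ratio of molecules.

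On the list of 13 other red cell and late erythroid miRNAs, chosen with earlier results of these data known, edgeR called 0, with estimates higher in KO for 4 and lower for 9 and a median log2 fold change of -0.13, against -0.03 over all miRNAs tested. In pool 1 the KO over WT ratios had a median of 0.858 and 4 of 13 were above 1, and in pool 2 the median was 0.967 and 5 of 13 were above 1. On total UMIs these became 0.766 with 2 of 13 and 1.15 with 10 of 13. Over all miRNAs the median ratios in pools 1 and 2 were 0.994 and 0.989 with TMM, and 0.887 and 1.18 on total UMIs. The list median was thus below that of all miRNAs in each pool on either scale, by little in pool 2. Between pools, with TMM, miR-486b-5p was 5.45-fold and 5.20-fold higher in pool 2 in WT and KO, and miR-486a-5p 3.95-fold and 3.86-fold, close to miR-451a. miR-25-3p, from a cluster in an intron of Mcm7, was 2.62-fold and 3.29-fold higher with TMM. Scaled on total UMIs, the pool 2 over pool 1 ratios in WT and KO were 1.87 and 2.38 for miR-486b-5p and 1.36 and 1.77 for miR-486a-5p. For miR-25-3p they were 0.901 and 1.51. Rises were not confined to red cell miRNAs. The hepatocyte miRNA miR-122-5p was 7.46-fold (WT) and 6.13-fold (KO) higher with TMM, and 2.56-fold and 2.81-fold on total UMIs. Of 4 hepatocyte markers 3 were above pool 1 in WT and 4 in KO with TMM, and 1 and 2 on total UMIs. Not all members of the list rose in pool 2, as 10 of 13 were above pool 1 in WT and 12 of 13 in KO with TMM, and 3 and 4 of 13 with total UMIs. The list medians were 1.506 (WT) and 1.515 (KO) with TMM. Those of all miRNAs were 0.968 and 1.00, and those of the 352 more abundant ones 1.36 and 1.18. On total UMIs the list medians were 0.517 and 0.6945, against 0.333 and 0.461 for all and 0.468 and 0.542 for the 352. miR-210-3p, a hypoxia-induced miRNA named after its values were seen, came near miR-144-3p, with ratios of 0.486 in WT and 1.09 in KO between pools and 0.569 and 1.28 between genotypes in pools 1 and 2.

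**Figure D5:**
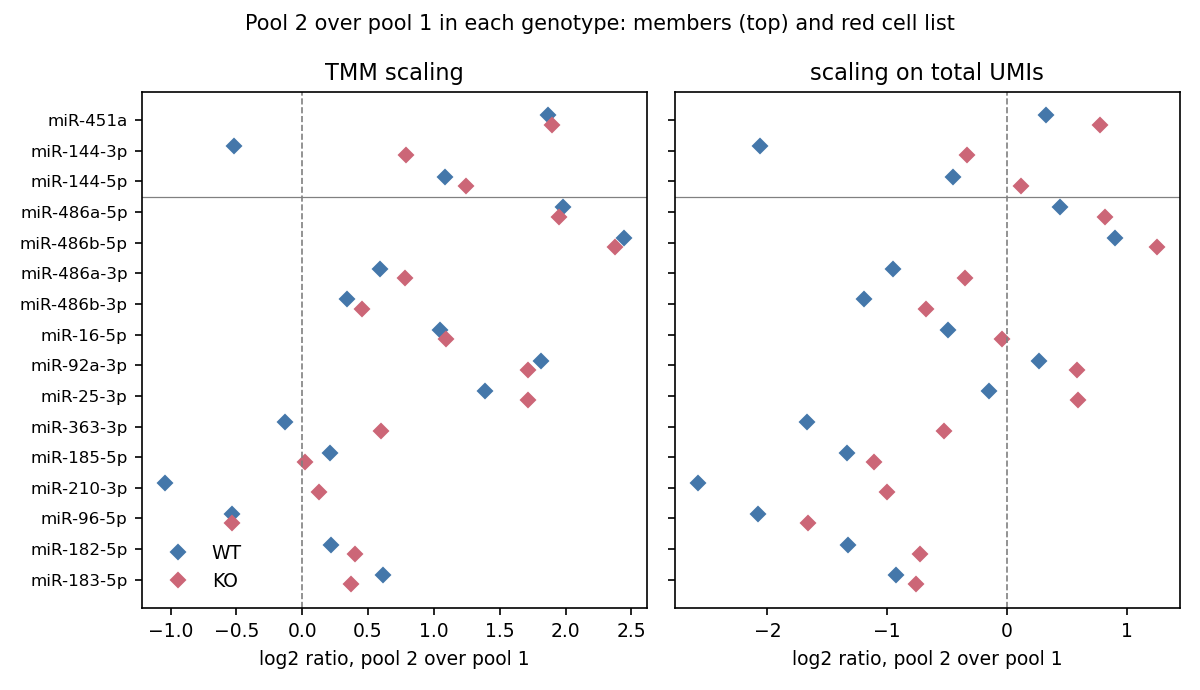
Log2 ratio of pool 2 over pool 1 in WT (blue) and KO (red) for the 3 members, above the line, and the 13 other red cell and late erythroid miRNAs, with TMM scaling on the left and total UMIs on the right. miR-451a lies beside miR-486a-5p on either scale, and the blue and red points of miR-144-3p stand on opposite sides of 0 with TMM only.

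The ratio of miR-451a to miR-23a-3p, a miRNA largely absent from red cells, is a common index of red cell rupture in plasma. In pool 1 the index was 0.367 (WT) and 0.173 (KO), and in pool 2 it was 0.976 (WT) and 0.805 (KO). KO was below WT in each pool number, by 1.09 and 0.28 on the log2 scale, but the ranges of the genotypes overlapped (-0.74 ± 1.00 in WT and -1.42 ± 1.57 in KO, SD, n = 2 each, exact permutation p = 0.667). That test takes no account of pool number and cannot give a p below 0.333, so it cannot decide on the direction within pools. No cut-off was applied, because those in use come from PCR. The denominator moved as well: miR-23a-3p had 8007 (WT) and 13867 (KO) UMIs in pool 1, and 7461 (WT) and 10729 (KO) in pool 2, with KO over WT ratios of 1.80 (1.76 to 1.85) and 1.05 (1.02 to 1.09). For miR-144-3p over miR-23a-3p pool 1 gave log2 values of -3.98 (WT) and -6.02 (KO), and pool 2 gave -4.96 (WT) and -4.91 (KO) (exact permutation p = 0.667).

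Markers of other cell types moved beside these values. All 5 red cell markers (the 3 members, miR-486a-5p and miR-486b-5p) were counted in every library, at 10.6% (WT) and 7.94% (KO) of miRNA UMIs in pool 1, and 18.4% (WT) and 17.8% (KO) in pool 2. With TMM all 5 were lower in KO in pool 1, with ratios from 0.441 to 0.850, and 1 of 5 was above 1 in pool 2. On total UMIs 0 of 5 were above 1 in pool 1 and 3 of 5 in pool 2. The median ratios of all miRNAs in pools 1 and 2 were 0.994 and 0.989 with TMM, and 0.887 and 1.18 on total UMIs. The 5 leukocyte markers, none of them at 0, took 2.85% (WT) and 5.37% (KO) in pool 1, and 1.57% (WT) and 1.56% (KO) in pool 2. For the 6 platelet and endothelial markers, also all above 0, the shares were 2.21% (WT) and 3.25% (KO), then 0.9502% (WT) and 1.41% (KO). The 4 hepatocyte markers held 11.2% (WT) and 7.37% (KO), then 27.2% (WT) and 20.2% (KO), and the 4 skeletal muscle markers 0.404% (WT) and 3.73% (KO), then 0.428% (WT) and 0.690% (KO). By these sums the KO pool 1 library combined the lowest red cell and hepatocyte shares with the highest leukocyte, platelet and muscle shares. Not every marker went with its sum. The shares of miR-144-3p, miR-122-3p and miR-802-5p were lower in both pool 2 libraries than in KO pool 1, and that of miR-222-3p was highest in WT pool 1. These sums leaned on single miRNAs. miR-486b-5p alone held 8.49% (WT) and 6.35% (KO) in pool 1, and 15.7% (WT) and 15.0% (KO) in pool 2. miR-122-5p alone held 10.5% (WT) and 7.05% (KO) in pool 1, and 26.6% (WT) and 19.7% (KO) in pool 2. miR-223-3p held 3.86% in KO pool 1. The list of 13 other red cell and late erythroid miRNAs held 49.4% (WT) and 39.9% (KO) in pool 1, and 46.1% (WT) and 49.5% (KO) in pool 2. The part of these shares in the values of the cluster was not tested.

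miRNAs known to decline as red cells mature had KO over WT ratios mostly above 1 in pool 1. All of them but miR-24-3p are also among the leukocyte or the platelet and endothelial markers above, so their values are not a separate observation. With TMM all 6 on that list had KO over WT ratios above 1 there, with values from 1.12 to 2.79, and in pool 2 the count was 3 of 6 and the median 0.991. On total UMIs 5 of 6 were above 1 in pool 1, with a median of 1.34, and 5 of 6 in pool 2, with a median of 1.18. The median ratio of all miRNAs was 0.994 in pool 1 and 0.989 in pool 2 with TMM. It was 0.887 and 1.18 on total UMIs, so the list did not stand out in pool 2 on either scale. Estimates were higher in KO for all 6, and edgeR called 0. miR-223-3p, a miRNA of neutrophils and monocytes, showed 2.79 and 0.717 in pools 1 and 2, the lymphocyte miRNA miR-150-5p 1.31 and 0.854, and miR-24-3p, from the miR-23a cluster, 1.69 and 1.25. Of the 5 plasma reference miRNAs, 5 were above 1 in pool 1 and 1 in pool 2 with TMM, and 3 and 2 on total UMIs. edgeR called 0 of the 5.

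The miRNAs with patterns most like each member over the 4 libraries were found by the distance between log2 profiles, each centred on its own mean, among the other 351 of the 352 more abundant miRNAs. This distance is free of the scaling, and with 4 points it describes these libraries only. Nearest to miR-451a was miR-375-3p, a miRNA of endocrine and epithelial cells, at 0.08, with 578 (WT) and 499 (KO) UMIs in pool 1 and 1542 (WT) and 1816 (KO) in pool 2. It was followed by miR-486a-5p at 0.10, miR-92a-3p at 0.16, miR-211-3p at 0.24 and miR-93-5p at 0.33. miR-144-5p came 26th for miR-451a at 0.72, and miR-144-3p 210th at 1.89.

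Nearest to miR-144-5p were miR-25-5p and miR-93-3p, opposite strands of the Mcm7 cluster, both at 0.17, then miR-3473d, miR-8112 and miR-8114. miR-144-3p had no close match: its nearest were miR-2137 at 0.45, miR-1258-5p at 0.51, miR-6977-3p at 0.53, miR-296-3p at 0.55 and miR-152-5p at 0.57, and its own opposite strand came 165th at 1.21. The seed relative miR-101a-3p had 770 (WT) and 1299 (KO) UMIs in pool 1 and 1053 (WT) and 1379 (KO) in pool 2. Its KO over WT ratio was 1.76 (1.61 to 1.92) in pool 1, where that of miR-144-3p was 0.441, and 0.960 (0.885 to 1.04) in pool 2.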

How the data were processed

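The authors deposited raw UMI counts and raw read counts for each mature miRNA, per the file headers, and a normalized log2 value per library, equal to log2 of the UMI count plus a constant for that library. Per the labels' protocols, exosomes were precipitated with ExoQuick and their RNA was turned into QIAseq miRNA libraries. The submitters' processing notes name FastQC 0.11.9 and GRCm38. For the aligner and the counter, the names are not given in any source used here.

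Genotypes were compared over the 1809 miRNAs listed in all libraries with edgeR 4.0.16 in R 4.3.3 (filtering by expression, TMM, quasi-likelihood F-test, two-sided, 1797 tested, Benjamini-Hochberg adjustment). SE is the log2 fold change over the root of F. DESeq2 1.42.0, limma 3.58.1, other scalings and filters, reads, pool number as a block and leaving out each library were alternatives. Scripts were tested on simulated counts. Ratios have exact conditional binomial 95% intervals (SciPy 1.17.1). Hairpins were folded with ViennaRNA 2.7.2. Members and lists were chosen with earlier results of these data known. The text names the members, miR-451b, seed relatives, up to 4 miRNAs per list by mean UMIs and the 5 nearest patterns, and says where a name was chosen otherwise.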

Additional observations from a re-analysis of the deposited data

Results flagged for a closer look

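miR-144-3p had KO over WT ratios on opposite sides of 1 within the pools: with TMM-scaled UMIs, 0.441 in pool 1 and 1.09 in pool 2. The exact counting interval of the pool 2 ratio, 0.926 to 1.29, included 1, so only the pool 1 ratio lay clear of it. Read the other way, its pool 2 over pool 1 ratio was 0.698 in WT and 1.73 in KO. The 4 values come from the same 4 libraries and the difference was not tested, as each rests on 1 library per genotype and pool number. No other member did either with TMM scaling, although 23.5% of all miRNAs were lower in KO in pool 1 and higher in pool 2. On total UMIs every member had that pattern, as did 44.2% of all miRNAs. The ratios in pools 1 and 2 were then 0.393 and 1.30 for miR-144-3p and 0.758 and 1.03 for miR-451a. For miR-144-5p they were 0.713 and 1.06.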

How the results depend on the processing

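Estimates for miR-144-3p stayed below 0 under all 16 alternatives, and those for miR-451a and miR-144-5p under 14 of 16. Adjusted p ran from 0.772 to 0.99997 for miR-144-3p, 0.916 to 0.99997 for miR-144-5p and 0.937 to 0.99997 for miR-451a. Leaving out a library gave log2 fold changes from -1.45 to 1.01 for miR-451a (above 0 without WT pool 2, and 0.47 without KO pool 1), -0.95 to -0.14 for miR-144-3p and -0.96 to 0.43 for miR-144-5p (0.30 without KO pool 1). The number of miRNAs called then ran from 0 to 3 (2 without WT pool 2, 3 without KO pool 2). With pool number as a replicate block, the estimates were -0.22, -0.53 and -0.24 for miR-451a, miR-144-3p and miR-144-5p, and 0 miRNAs were called. With the block and TMM computed on the 352 more abundant miRNAs, 18 were called, none a member. Same-numbered libraries deviated together (correlation 0.535 over 1797 miRNAs), but the labels do not say that a number marks a shared batch.

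Shares, KO minus WT in percentage points, ran without each library from -0.0678 to 0.0300 for miR-451a (0.00286 without WT pool 2), -0.0209 to 0.00362 for miR-144-3p and -0.00151 to 9.26e-05 for miR-144-5p. The log2 ratios, KO minus WT, ran from -1.08 to 0.52 for miR-144-3p over miR-144-5p, -0.88 to 1.501 for miR-451a over miR-144-3p (-0.25 without KO pool 2), -0.56 to 0.26 over miR-16-5p, -0.20 to 0.31 over miR-486a-5p with miR-486b-5p (-0.15 without KO pool 1), -1.79 to 0.43 over miR-23a-3p (0.02 without WT pool 2), and -1.55 to -0.43 for miR-144-3p over miR-23a-3p. Read counts and other denominators kept all directions of shares and log2 ratios. Within pools, total UMIs gave 0.758 and 1.03 for miR-451a, 1.06 for miR-144-5p in pool 2 and 1.30 for miR-144-3p in pool 2, and reads gave 0.524 for miR-144-3p in pool 1. Counts of 69 to 158 UMIs limit miR-144-5p.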
